A study of Rattus norvegicus with 8 samples.

Results

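The voltage-gated and related channel subunits of the rat retina are described here: the pore-forming and auxiliary subunits of potassium, sodium and calcium channels and the HCN channels. They were taken by gene name from the non-control spots of the arrays (names that start with Kcn and a family letter, the Scn alpha and beta genes, the Cacna, Cacnb and Cacng genes and the Hcn genes, without Kcnj10), which gave 134 of the 26334 gene names on the array, on 228 spots of 183 probes. Retinas came from female Lister Hooded rats aged 8 weeks, collected 2 weeks after surgery on the right optic nerve. In the ONC group (4 retinas) the nerve was crushed with forceps behind the eye. The CTR group (4 retinas) had sham surgery, which left the nerve uncrushed. Each array held 1 CTR and 1 ONC channel by the labels, so that a retina is 1 channel and n is 4 in each group.

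Sodium channels carry the upstroke of the action potential, and in the retina they are concentrated in ganglion cells, the output neurons whose axons form the optic nerve, and in some amacrine cells. Potassium channels set the resting potential and end each spike, calcium channels couple depolarization to transmitter release, and HCN channels carry a current that opens on hyperpolarization and shapes the responses of photoreceptors and bipolar cells. Glia, vessels and pigment epithelium use other members, mostly inward rectifiers and K2P leak channels, to move potassium.

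The labels give Cy5 to all CTR retinas and Cy3 to all ONC retinas, which means that treatment and dye cannot be told apart, and the methods describe another layout, with retinas of a single group on each array. Retinal ganglion cell markers also went against the labels of 6 of the 8 channels. Of 22 markers listed, 20 were on the array and 14 passed the spot filter. Set against each gene's mean over the 8 channels, their median log2 level was -1.39, 0.96, -0.90 and -0.67 in the channels labelled CTR1 to CTR4 and 0.91, 1.09, 1.13 and -1.02 in those labelled ONC1 to ONC4. By the labels 12 of the 14 lay higher in ONC (median log2 difference 1.14), and 0 were called by limma (1 unadjusted). That median was high in the channels labelled CTR2, ONC1, ONC2 and ONC3 and low in the other 4, though not every marker followed it. Their summed linear level, in units of the channel median, was 19.2, 52.0, 21.1 and 27.2 across CTR1 to CTR4, and 58.9, 56.1, 59.3 and 22 across ONC1 to ONC4, with Stmn2 the brightest marker. Pou4f3, Chrnb3, Irx2, Isl2 and Nrn1 were not well above background in ONC4, and Pou4f3 was not in CTR1 or CTR3 either, nor Chrnb3 in CTR1. No channel was moved to another group. A direction below is one between labels, and for ganglion cell markers, higher by the labels in ONC, it is opposite to the direction the study gives. In whole retina, fewer cells of a type and less RNA per cell cannot be told apart.

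Of the 134 subunits, 85 were well above background in all 8 channels and 11 in none. The spot filter, a foreground of at least 2 times the background in every channel, passed 89, and 45 had no tested value. Levels below are log2 values over the median of the channel, and a level of one gene says nothing about that of another. In limma over 16307 genes, 0 of the 89 tested subunits reached an adjusted p under 0.05, against 0.497% of all genes. At an unadjusted p under 0.05 there were 17 of 89 (19%), against 18.6% of all genes, a share near that of all genes. With the array as a block, 3 of 89 (3.37%) were called, against 7.69% of all genes: Kcnk2, Cacna2d4 and Kcne5. The 4 ONC channels did not overlap the 4 CTR channels for 7 of 89 (7.87%), against 12.7% of all genes. These were Kcnk2, Cacna2d4, Kcna6 and Scn3a and, named after their values were seen, Cacng2, Kcna4 and Kcnk12. The ONC channel was on the same side of the CTR channel on all 4 arrays for 24 of 89 (27.0%), against 39.4%. The criterion of the methods as rebuilt here, an unadjusted test joined to a fold threshold from the variability, was met by 1 of 89 (1.12%), Kcnk2, against 3.08%. By the labels 57 subunits (64.0%) were higher and 32 lower in ONC, against 47.4% of all genes higher. The median log2 difference of the subunits was 0.08, beside -0.01 over all genes. With each channel scaled to its median and no loess, 72 were higher and 20 of 89 (22.5%) were called, against 19.6% of all genes. The median was then 0.29, and that of all genes 0.07. Among these 20 were Cacna1c, Cacna1d, Cacna2d4, Kcna6, Kcnc2, Kcnd3, Kcnk2, Kcnma1, Kcnn3 and Scn3a. The class medians given below shift with the processing. Over 7 settings of background, filter, scaling and probe choice they ran from 0.17 to 0.48 for sodium channel alpha, 0.24 to 0.40 for sodium channel beta, 0.01 to 0.31 for Kv alpha, -0.03 to 0.15 for potassium channel auxiliary and 0.07 to 0.31 for inward rectifier subunits. They ran from -0.02 to 0.38 for K2P, 0.06 to 0.36 for calcium- and sodium-activated, 0.06 to 0.21 for calcium channel alpha1, 0.04 to 0.24 for auxiliary calcium channel and -0.01 to 0.14 for HCN subunits.

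**Figure D1:**
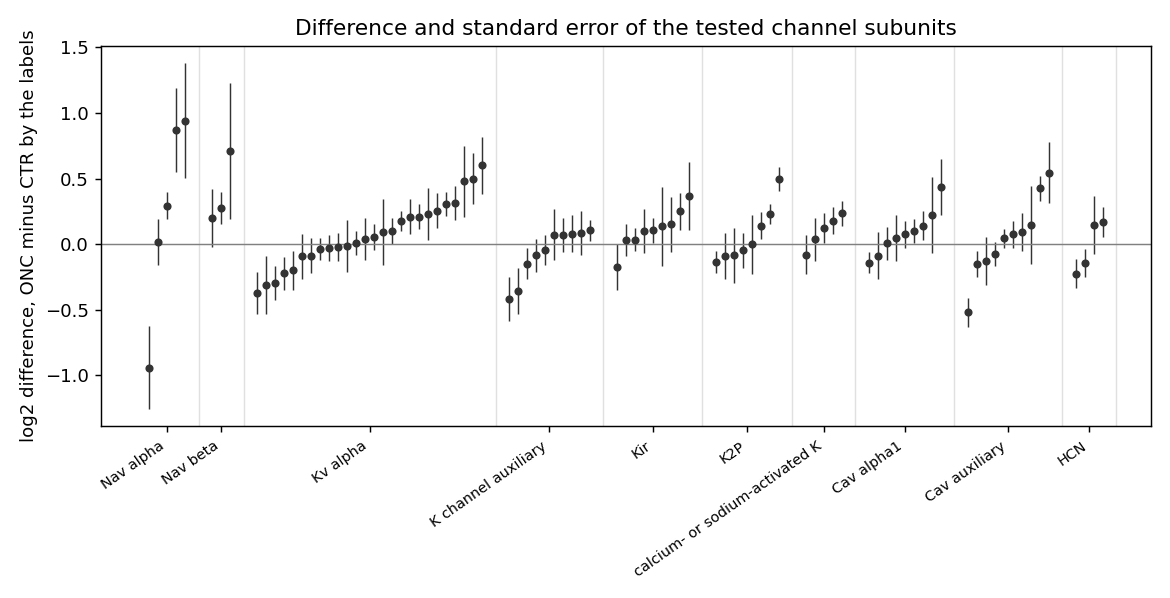
Log2 difference between the channels labelled ONC and CTR (4 each) for the 89 tested subunits, by class and sorted within a class, with bars of 1 standard error from limma. The widest differences are those of sodium channel subunits, from -0.94 for Scn7a to 0.94 for Scn2a.

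The difference between the channels of each array shows where the subunits varied. Over 2-fold either way on array 1 were 6 of 89 (6.74%), against 1.97% of all genes. It was 1 of 89 (1.12%) on array 2, against 0.423%, 5 of 89 (5.62%) on array 3, against 1.37%, and 1 of 89 on array 4, against 1.53%. This tally was added after the values were seen. The subunits known from ganglion cell spikes (17 of 18 listed on the array, 14 tested) had median differences of 0.73, 0.09, 0.57 and -0.02 on arrays 1 to 4. Ganglion cell markers had 2.32, 0.03, 2.07 and -0.23 on these arrays, and all genes -0.03, 0.00, -0.02 and 0.00. Both lists had their larger medians on arrays 1 and 3. The part of the ganglion cell markers in the values of the subunits was not tested.

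**Figure D2:**
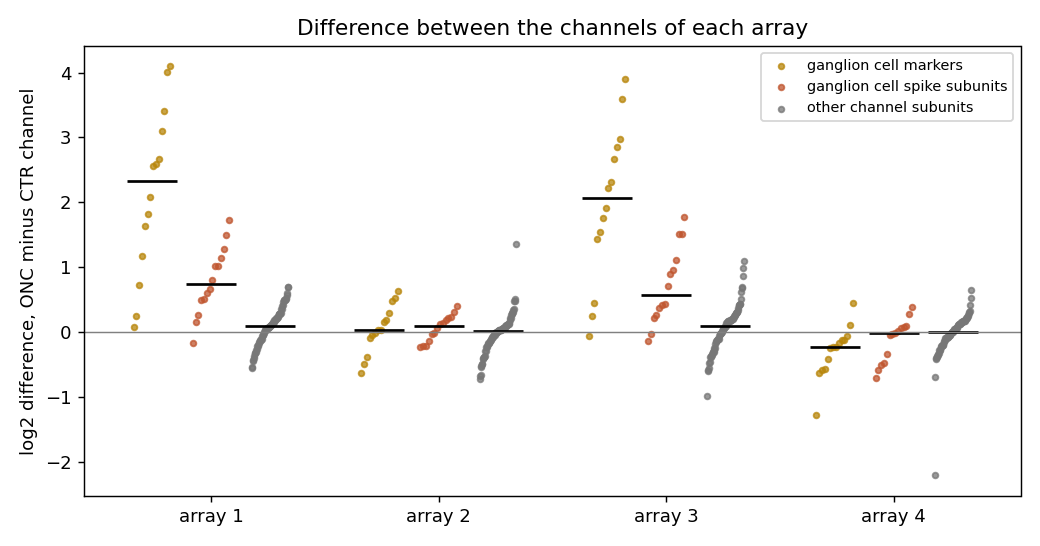
Log2 difference between the ONC and the CTR channel of each array for 14 ganglion cell markers, 14 spike subunits and the other tested subunits; each point is a gene and each bar a median. Marker medians are 2.32 and 2.07 on arrays 1 and 3, and 0.03 and -0.23 on arrays 2 and 4.

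Of 10 sodium channel alpha subunits on the array 5 were tested, 4 higher and 1 lower in ONC by the labels, with a median of 0.29 and 0 called. Scn1a, a pore subunit of the axon initial segment, was at 0.40, 1.44, 0.26 and 0.29 across CTR1 to CTR4, and at 1.68, 1.75, 1.78 and 0.67 across ONC1 to ONC4. The channels labelled CTR2, ONC1, ONC2 and ONC3 were high and the other 4 low, so the groups overlapped. The Scn1a log2 difference was 0.87 (standard error 0.32), from means of 0.60 ± 0.56 in CTR and 1.47 ± 0.53 in ONC (SD, n = 4), with an adjusted p of 0.196 by limma. Scn2a, a related pore subunit of unmyelinated axons, was at -0.95, 0.67, -1.04 and -0.90 across CTR1 to CTR4, and at 0.55, 0.88, 0.73 and -0.62 across ONC1 to ONC4. The same 4 channels were high and the same 4 low. The Scn2a log2 difference was 0.94 (standard error 0.44), from means of -0.56 ± 0.82 in CTR and 0.38 ± 0.68 in ONC (SD, n = 4), with an adjusted p of 0.294 by limma, and the groups overlapped. Scn3a, the subunit best known from the developing nervous system, was at -2.38, -2.13, -2.35 and -1.98 across CTR1 to CTR4, and at -1.89, -1.89, -1.93 and -1.96 across ONC1 to ONC4. Every ONC channel lay above every CTR channel, the nearest pair being CTR4 and ONC4. Scn3a had a log2 difference of 0.29 (standard error 0.10), from means of -2.21 ± 0.19 in CTR and -1.92 ± 0.03 in ONC (SD, n = 4), with an adjusted p of 0.18 by limma. Over the alternatives this difference ran from 0.14 to 0.48. Scn7a, a sodium sensor of glia and some neurons that does not open with voltage, was at -2.00, -1.25, -1.0 and -0.30 across CTR1 to CTR4, and at -1.90, -1.93, -1.99 and -2.51 across ONC1 to ONC4. It was highest in CTR4 and lowest in ONC4, which share array 4, a difference of -2.21 on that array, and CTR1 lay among the ONC channels. The Scn7a log2 difference was -0.94 (standard error 0.32), from means of -1.14 ± 0.70 in CTR and -2.08 ± 0.29 in ONC (SD, n = 4), with an adjusted p of 0.164 by limma. It was -0.44 without the filter and with normexp. Scn8a, the main subunit of mature nodes, did not pass the filter. Its foreground was 1.85, 2.72, 1.84 and 2.29 times the background across CTR1 to CTR4, and 4.38, 5.09, 4.22 and 3.33 times across ONC1 to ONC4. Without the filter its log2 difference was 0.22 (standard error 0.15, adjusted p = 0.998 by limma).

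The probes of the 5 subunits with the widest range over the 8 channels are shown, with those of Kcnc2, the Kv alpha subunit with the largest difference, whose 2 probes differ in pattern. Each is given by the first 30 of its 60 bases, 5′ to 3′. Positions are those of the array design on build rn4.
Scn1a (chr3:48238557-48238616, minus strand): ctgcatgttggaaaatgctactattgccca
Scn2a (chr3:47722732-47722791, plus strand): taccatacagagctaccggtaagccacatt
Scn7a (chr3:48633684-48633743, minus strand): gtatttcttgcaacttgaagaaaatgaccc
Scn4b (chr8:48106487-48106546, plus strand): tcctctggcttggataacagtacccatagt
Cacnb4 (chr3:33936598-33936657, minus strand): actaccctctggtggaagaagattatcctg
Kcnc2, upstream probe (chr7:51485347-51485406, plus strand): aaaccatgactttggtcagctcgtttgcat
Kcnc2, downstream probe (chr7:51487876-51487935, plus strand): ccaatggacatgttactaactgaaatgaag

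Sodium channel beta subunits are small adhesion proteins that set the gating and placement of the pore. Of 4 on the array 3 were tested, with 0 called. Scn4b, which speeds the return from inactivation, was at -2.98, -1.03, -2.66 and -2.31 across CTR1 to CTR4, and at -1.26, -0.85, -1.15 and -2.89 across ONC1 to ONC4. CTR2, ONC1, ONC2 and ONC3 were again the high channels, and ONC4 lay beside CTR1. The Scn4b log2 difference was 0.71 (standard error 0.52), from means of -2.25 ± 0.85 in CTR and -1.54 ± 0.92 in ONC (SD, n = 4), with an adjusted p of 0.514 by limma, and it was smaller than the SD within either group. It was 0.46 without CTR1 and 1.16 without ONC4. Scn3b was at 3.28, 3.72, 3.43 and 3.53 across CTR1 to CTR4, and at 3.80, 3.87, 3.86 and 3.52 across ONC1 to ONC4, with the lowest value in CTR1 and CTR2 above ONC4. The Scn3b log2 difference was 0.27 (standard error 0.12), from means of 3.49 ± 0.19 in CTR and 3.76 ± 0.17 in ONC (SD, n = 4), with an adjusted p of 0.276 by limma. Scn2b did not pass the filter, at 1.53 to 1.94 times the background in the CTR channels and 2.48 to 4.73 times in the ONC channels. Without the filter its log2 difference was 0.17 (standard error 0.15, adjusted p = 1.0 by limma). The median background itself lay between 55.0 and 56.5 for CTR, and between 26 and 29.5 for ONC, so these ratios do not compare the groups.

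**Figure D3:**
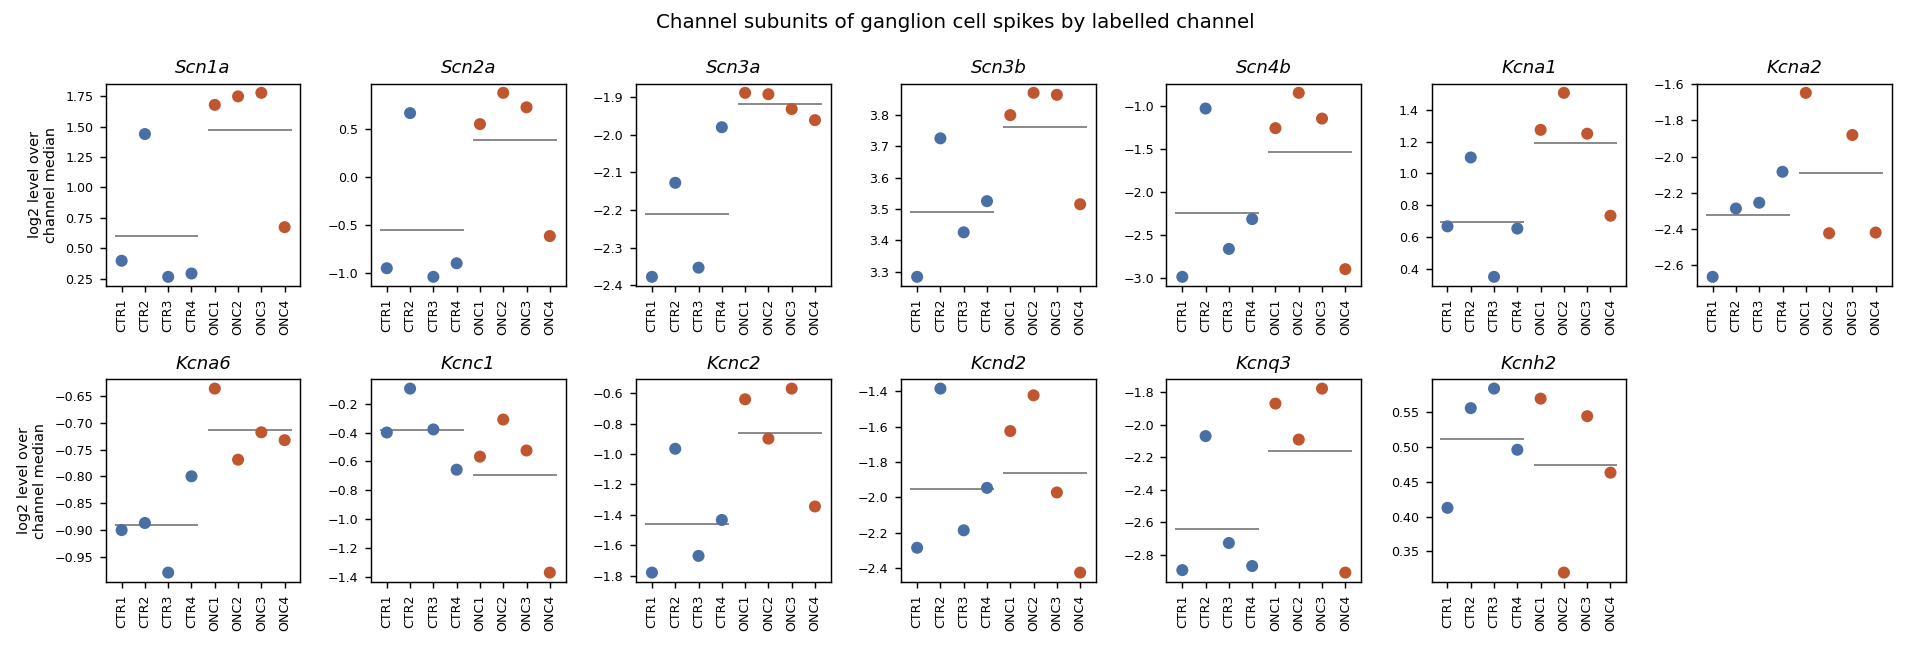
Log2 level over the channel median of 13 of the 14 tested spike subunits in the 8 channels, CTR in blue and ONC in orange, with a line at each group mean. Scn1a, Scn2a and Scn4b are high in CTR2, ONC1, ONC2 and ONC3, and ONC4 lies with the low CTR channels.

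Kv alpha subunits form the voltage-gated potassium pores. Of 39 on the array 26 were tested, 15 higher and 11 lower in ONC by the labels, with a median of 0.05 and 0 called. With median scaling 20 of them were higher and the median was 0.31. Kcnc2, which allows fast repetitive firing, was at -1.78, -0.97, -1.67 and -1.43 across CTR1 to CTR4, and at -0.64, -0.90, -0.57 and -1.35 across ONC1 to ONC4. The Kcnc2 log2 difference was 0.60 (standard error 0.22), from means of -1.46 ± 0.36 in CTR and -0.86 ± 0.35 in ONC (SD, n = 4), with an adjusted p of 0.186 by limma. No other Kv alpha subunit had a larger one, and CTR2 lay among the ONC channels. The 2 probes of the gene differed in pattern. The downstream probe was at -0.77, 0.55, -0.85 and -0.49 across CTR1 to CTR4, and at 0.37, 0.46, 0.38 and -0.74 across ONC1 to ONC4, high in the channels where ganglion cell markers were high. The upstream probe was at -2.79, -2.48, -2.50 and -2.38 in the CTR channels and -1.65, -2.25, -1.51 and -1.95 in the ONC channels, with no overlap between the groups. Neither was called, with adjusted p of 0.497 and 0.081 by limma. The files assign the 2 probes to different transcript records of the gene.

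Kcna1 and Kcna2 form the low-threshold channels beside the nodes. Kcna1 was at 0.67, 1.10, 0.35 and 0.65 across CTR1 to CTR4, and at 1.27, 1.51, 1.25 and 0.73 across ONC1 to ONC4, and its log2 difference was 0.50 (standard error 0.19), from means of 0.69 ± 0.31 in CTR and 1.19 ± 0.33 in ONC (SD, n = 4), with an adjusted p of 0.219 by limma. The groups overlapped, with CTR2 above ONC4. Kcna2 was at -2.66, -2.29, -2.25 and -2.08 across CTR1 to CTR4, and at -1.65, -2.42, -1.88 and -2.42 across ONC1 to ONC4, high in ONC1 and ONC3 only, with a log2 difference of 0.23 (standard error 0.20) that was 0.08 without ONC1. Kcna6 differed little but without overlap, at -0.90, -0.89, -0.98 and -0.80 across CTR1 to CTR4, and at -0.64, -0.77, -0.72 and -0.73 across ONC1 to ONC4, with a log2 difference of 0.18 (standard error 0.08), from means of -0.89 ± 0.07 in CTR and -0.71 ± 0.06 in ONC (SD, n = 4), with an adjusted p of 0.261 by limma. The separation is that of the average of its 2 probes, each of which overlapped between the groups, with differences of 0.21 and 0.14. Kcnq3, a subunit of the M-current that damps repetitive firing, was at -2.89, -2.07, -2.73 and -2.87 across CTR1 to CTR4, and at -1.87, -2.09, -1.78 and -2.91 across ONC1 to ONC4, and the channels high in ganglion cell markers were high in it too. The Kcnq3 log2 difference was 0.48 (standard error 0.27), from means of -2.64 ± 0.39 in CTR and -2.16 ± 0.52 in ONC (SD, n = 4), with an adjusted p of 0.389 by limma, and ran from 0.35 to 0.73 with 1 retina left out. Kcnd2, an A-type pore that delays spikes, was at -2.29, -1.38, -2.19 and -1.95 across CTR1 to CTR4, and at -1.62, -1.42, -1.97 and -2.43 across ONC1 to ONC4. CTR2 was its highest channel and ONC4 its lowest, and its log2 difference of 0.09 (standard error 0.25) turned to -0.03 with the brightest probe alone. Kcnc1, a second fast-firing pore, was at -0.40, -0.09, -0.38 and -0.66 across CTR1 to CTR4, and at -0.57, -0.31, -0.52 and -1.37 across ONC1 to ONC4, lowest in ONC4, with a log2 difference of -0.31 (standard error 0.22) that was -0.08 without ONC4. Kcnh2, of the ether-a-go-go family, ranged only from 0.32 to 0.58 over the 8 channels. Kcnd3, an A-type pore of the inner retina, ranged from -3.25 to -2.92, and its difference of -0.02 turned sign under 8 of 17 alternatives. With median scaling it was 0.45 and called at an adjusted p of 0.023 (0.023 to 1.0 over the alternatives).

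The photoreceptor subunits, 7 of 7 tested, had a median log2 difference of -0.09, with 3 higher, 4 lower and 0 called without a block, and 1 with it, Cacna2d4. Kcnv2, an electrically silent subunit of the inner segment current, was at 0.24, -0.13, 0.32 and 0.43 across CTR1 to CTR4, and at 0.24, 0.00, 0.18 and 0.60 across ONC1 to ONC4, with a log2 difference of 0.04 (standard error 0.16) that was -0.20 with the brightest probe alone. Kcnj14, an inward rectifier, was lowest in CTR2 and ONC2, the channels of array 2, at 5.94, 5.19, 5.82 and 5.83 across CTR1 to CTR4, and at 6.22, 4.90, 6.24 and 5.98 across ONC1 to ONC4. Rod markers (9 of 11 listed tested) were lowest in the same channels, at a median of -0.29 in ONC2 and -0.07 in CTR2 against each gene's mean. All genes were at -0.06 and -0.06 there. The part of the rod markers in these levels was not tested.

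Potassium channel auxiliary subunits modify the pores they join. Of 16 on the array 10 were tested, 5 higher and 5 lower, with 0 called without a block. Their median of 0.01 was -0.03 with the brightest probe, 0.15 with median scaling (8 higher) and 0.12 with the processed signals (7 higher). Kcne2, a single-pass subunit abundant in pigment and secretory epithelia, was at 2.86, 3.05, 2.98 and 3.05 across CTR1 to CTR4, and at 2.41, 2.32, 2.43 and 3.11 across ONC1 to ONC4. ONC4 lay with the CTR channels and the other ONC channels lay below them, with a log2 difference of -0.42 (standard error 0.17), from means of 2.99 ± 0.09 in CTR and 2.57 ± 0.37 in ONC (SD, n = 4), with an adjusted p of 0.228 by limma. Kcne5, of the same family, was at -3.17, -3.44, -2.89 and -2.80 across CTR1 to CTR4, and at -3.42, -3.82, -3.28 and -3.20 across ONC1 to ONC4, lower in ONC on 4 of 4 arrays by -0.26, -0.39, -0.39 and -0.40. The groups overlapped, since CTR2 was low. The Kcne5 log2 difference was -0.36 (standard error 0.18), from means of -3.07 ± 0.29 in CTR and -3.43 ± 0.28 in ONC (SD, n = 4), with an adjusted p of 0.322 by limma, and with the array as a block it was called at an adjusted p of 0.037 (0.037 to 1.0 over the alternatives). The difference ran from -0.48 to -0.23 with 1 retina left out, and with median scaling its direction turned, to 0.16. Without the filter and with normexp the block gave 0.056, which is not called. Kcnip4, a calcium sensor of A-type channels, ranged from -0.93 to -0.22 with a difference of 0.09 (standard error 0.17).

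**Figure D4:**
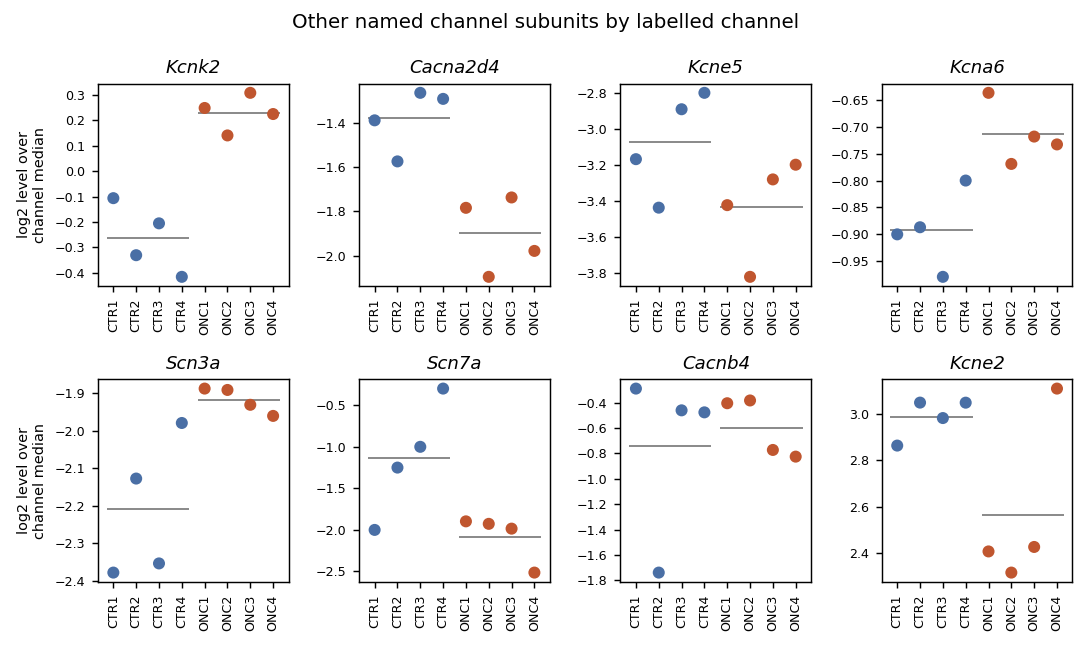
Log2 level over the channel median of 8 named subunits in the 8 channels, CTR in blue and ONC in orange, with a line at each group mean. Kcnk2, Kcna6 and Scn3a lie higher and Cacna2d4 lower in every ONC channel than in every CTR channel, while Cacnb4 stands apart in CTR2, at -1.74.

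Inward rectifiers (9 tested of 14) were higher in 8 and lower in 1 by the labels, with a median of 0.10 and 0 called. Kcnj13, of the apical membrane of the pigment epithelium, was at -2.35, -2.55, -2.86 and -1.69 across CTR1 to CTR4, and at -1.85, -2.52, -1.88 and -1.73 across ONC1 to ONC4, with a log2 difference of 0.37 (standard error 0.26), from means of -2.36 ± 0.50 in CTR and -1.99 ± 0.36 in ONC (SD, n = 4), with an adjusted p of 0.495 by limma, and it was 0.20 without CTR3 and 0.59 without CTR4. CTR4 and ONC4, on 1 array, were both among its high channels. Pigment epithelium markers (5 of 8 tested, Ttr the brightest) were at a median of 0.11, -0.21, -0.53 and 0.20 across CTR1 to CTR4, and at 0.45, -0.73, 0.23 and 0.35 across ONC1 to ONC4 against each gene's mean. They were lowest in CTR3 and ONC2, where Kcnj13 was also low. In CTR2 Kcnj13 was as low as in ONC2 (-2.55 and -2.52), though the marker median was higher there (-0.21 and -0.73). The part of these markers in Kcnj13 was not tested. Kcnj8, of pericytes, ranged from -1.04 to 0.09 with a difference of 0.15 (standard error 0.21), which was -0.01 with the processed signals. Kcnj2 and Kcnj16, of glia and endothelium, were not well above background in any channel.

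K2P subunits form leak channels, 8 tested of 14, with 3 higher and 5 lower and 0 called without a block. Their median of -0.02 was 0.38 with median scaling and 0.11 with the processed signals. Kcnk2, a mechanically and lipid gated member, was at -0.11, -0.33, -0.21 and -0.42 across CTR1 to CTR4, and at 0.25, 0.14, 0.31 and 0.23 across ONC1 to ONC4. Every ONC channel lay above every CTR channel, and the difference was higher in ONC on 4 of 4 arrays, by 0.35, 0.47, 0.51 and 0.64. The Kcnk2 log2 difference was 0.50 (standard error 0.09), from means of -0.26 ± 0.14 in CTR and 0.23 ± 0.07 in ONC (SD, n = 4), with an adjusted p of 0.0575 by limma, the smallest adjusted p of all subunits. With the array as a block it was called at an adjusted p of 0.030, 0.012 to 0.984 over the alternatives. Without the filter and with normexp its difference was 0.18 and the block gave 0.073, which is not called. Of the 3 probes of this gene 1 was tested. Kcnk1 ranged from 1.36 in CTR1 to 1.92 in CTR4 with a difference of -0.05 (standard error 0.13), which was 0.10 with the processed signals.

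Calcium- and sodium-activated potassium channels (5 tested of 7) were higher in 4 and lower in 1. Kcnma1, the large-conductance channel, was at -1.67, -1.76, -1.74 and -1.65 across CTR1 to CTR4, and at -1.39, -1.69, -1.37 and -1.41 across ONC1 to ONC4, higher in ONC on 4 of 4 arrays. The Kcnma1 log2 difference was 0.24 (standard error 0.09), from means of -1.70 ± 0.05 in CTR and -1.47 ± 0.15 in ONC (SD, n = 4), with an adjusted p of 0.23 by limma, and its 2 tested probes gave 0.46 and 0.01. Kcnn3, a small-conductance channel, ranged from -2.86 to -2.43, with a difference of 0.18 (standard error 0.10). With median scaling it was 0.50 and called at an adjusted p of 0.019 (0.019 to 0.980 over the alternatives). Kcnn4 did not pass the filter.

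Calcium channel alpha1 subunits (9 tested of 10) were higher in 7 and lower in 2, with a median of 0.08 and 0 called. Cacna1b, the N-type pore of transmitter release, was at -0.78, -0.03, -0.87 and -0.70 across CTR1 to CTR4, and at -0.08, 0.08, -0.01 and -0.62 across ONC1 to ONC4, and CTR2 lay with ONC1, ONC2 and ONC3. The Cacna1b log2 difference was 0.44 (standard error 0.21), from means of -0.59 ± 0.38 in CTR and -0.16 ± 0.31 in ONC (SD, n = 4), with an adjusted p of 0.314 by limma. Cacna1a, the P/Q-type pore, ranged from -1.27 to -0.73, and the L-type pores Cacna1c, Cacna1d and Cacna1f from -2.88 to -2.52, from -4.51 to -3.70 and from -0.11 to 0.52. Their log2 differences were 0.01 (standard error 0.13), 0.08 (standard error 0.10), 0.05 (standard error 0.18) and -0.09 (standard error 0.18), each smaller than the SD within either group. That of Cacna1c ran from 0.02 to 0.15 with 1 retina left out. With median scaling Cacna1c was at 0.44 and Cacna1d at 0.84, called at adjusted p of 0.026 (0.026 to 1.0 over the alternatives) and 0.018 (0.018 to 1.0). Cacna1d was near background, and well above it in 6 of the 8 channels. Its foreground was 2.06 to 2.45 times the background in the CTR channels and 3.26 to 4.52 times in the ONC channels.

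Auxiliary calcium channel subunits (10 tested of 16) were higher in 6 and lower in 4, with 0 called without a block. Cacna2d4, the alpha2delta subunit of photoreceptor synapses, was at -1.39, -1.57, -1.26 and -1.29 across CTR1 to CTR4, and at -1.78, -2.10, -1.74 and -1.98 across ONC1 to ONC4. Every ONC channel lay below every CTR channel, and the difference was lower on 4 of 4 arrays, by -0.40, -0.52, -0.47 and -0.69. The Cacna2d4 log2 difference was -0.52 (standard error 0.11), from means of -1.38 ± 0.14 in CTR and -1.90 ± 0.17 in ONC (SD, n = 4), with an adjusted p of 0.0676 by limma, and with the array as a block it was called at 0.029 (0.026 to 0.454 over the alternatives). Without the filter and with normexp, 1 of 134 subunits was called with the array as a block (0.746%), again Cacna2d4, against 4.55% of all genes. Cone markers (8 of 9 tested, Pde6h the brightest) had a median difference of -0.29, -0.31, -0.29 and -0.20 on the 4 arrays, and rod markers -0.14, -0.16, -0.12 and 0.01. Their part in Cacna2d4 was not tested. Cacnb3 was at 3.08, 3.59, 2.63 and 2.79 across CTR1 to CTR4, and at 3.57, 3.88, 3.72 and 3.11 across ONC1 to ONC4, with a log2 difference of 0.55 (standard error 0.23), from means of 3.02 ± 0.42 in CTR and 3.57 ± 0.33 in ONC (SD, n = 4), with an adjusted p of 0.249 by limma. The groups overlapped, with CTR2 above ONC1 and ONC4. Cacnb4 was at -0.29, -1.74, -0.46 and -0.48 across CTR1 to CTR4, and at -0.40, -0.38, -0.77 and -0.82 across ONC1 to ONC4, low in CTR2 alone, and its difference of 0.15 (standard error 0.30) turned to -0.19 without CTR2. Cacnb2, Cacna2d1 and Cacna2d3 had log2 differences of 0.09 (standard error 0.15), -0.08 (standard error 0.09) and 0.08 (standard error 0.10). With 1 retina left out these ran from 0.01 to 0.20, from -0.13 to -0.03 and from 0.01 to 0.13.

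All 4 HCN genes were tested, with 0 called and a median of 0.00 that was 0.14 with median scaling. Hcn2 was at -2.64, -2.87, -2.39 and -2.47 across CTR1 to CTR4, and at -2.15, -3.17, -2.21 and -2.26 across ONC1 to ONC4, low in ONC2, and Hcn4 at -1.47, -1.91, -1.68 and -1.66 across CTR1 to CTR4, and at -1.36, -1.63, -1.45 and -1.62 across ONC1 to ONC4. Their log2 differences were 0.15 (standard error 0.22) and 0.17 (standard error 0.11), and ran from 0.05 to 0.39 and from 0.09 to 0.24 with 1 retina left out.

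The median SD within the groups on the log2 scale was 0.20 in CTR and 0.18 in ONC for the 89 subunits, and 0.18 and 0.16 for all genes. The relative expression variability of the methods (REV, an interval estimate of the coefficient of variation) had a median of 27.9% in CTR and 24.0% in ONC, beside 25.1% and 21.7% over all genes. It was higher in CTR for 56 of 89 subunits (62.9%) and 58.5% of all genes. The widest value in CTR was that of Scn2a, 148%, with 80.0% in ONC; CTR2 was its 1 high CTR channel and ONC4 its 1 low ONC channel.

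**Figure D5:**
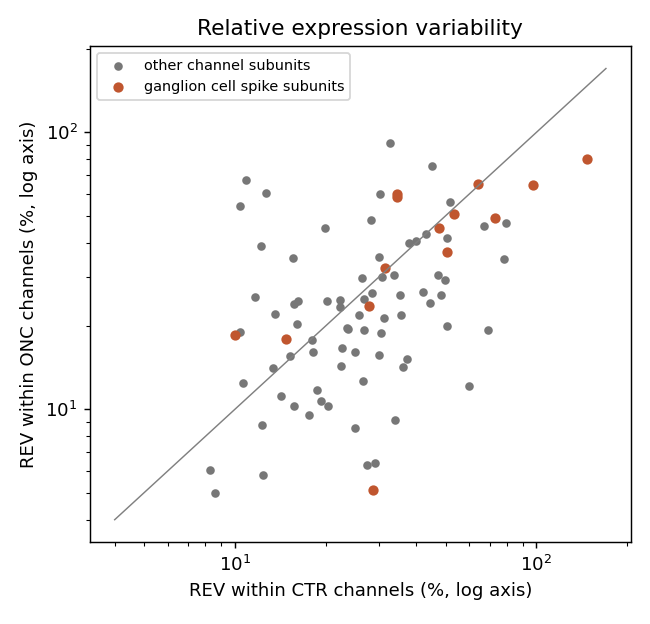
Relative expression variability of the 89 tested subunits within the CTR and the ONC channels (percent, log axes), with the line of equal values. The median is 27.9% in CTR and 24.0% in ONC, and Scn2a lies farthest out at 148% in CTR.

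The partners of these channels were described in 3 lists. Initial segment and node proteins (16 tested of 19 listed), which anchor sodium and potassium channels, were higher in 14 and lower in 2, with a median of 0.26 and 0 called with or without the array as a block. Their medians on arrays 1 to 4 were 0.49, 0.01, 0.43 and 0.03, larger on arrays 1 and 3 as in the ganglion cell markers, whose part in them was not tested. Auxiliary and trafficking proteins (11 tested of 14) were higher in 9 and lower in 2, with a median of 0.22 and 0 called, 1 with the block. Ion pumps and exchangers (11 tested of 12) were higher in 6 and lower in 5, with a median of 0.04 and 0 called, 1 with the block. Channel genes outside the naming rule (7 tested of 13) had a median of 0.01, or -0.02 with the processed signals, with 0 called and 2 with the block, by which 7.69% of all genes were called. The subunits of bipolar, horizontal and amacrine cells (11 tested) had a median of 0.08, those of glia, vessels and pigment epithelium (5 tested of 8) 0.18, and the spike subunits 0.28, beside -0.01 over all genes. Over the 7 settings these 3 ran from 0.06 to 0.36, from 0.10 to 0.50 and from 0.22 to 0.47, and the photoreceptor subunits from -0.17 to -0.04. The partner lists ran from 0.21 to 0.34 for node proteins, 0.11 to 0.29 for trafficking proteins and 0.04 to 0.17 for pumps, and the channel genes outside the naming rule from -0.02 to 0.20.

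In markers of the other cell types 0 genes were called by limma without a block. With the array as a block 3 of 8 cone, 2 of 13 amacrine, 2 of 8 Müller glia, 1 of 9 rod and 1 of 7 pericyte and smooth muscle markers were called, against 7.69% of all genes. Their median log2 differences were -0.10 for amacrine (13 tested), 0.08 for bipolar (13 tested), -0.01 for horizontal (5 tested), -0.03 for rod (9 tested), -0.32 for cone (8 tested), -0.21 for Müller glia (8 tested), -0.38 for microglia (10 tested). They were 0.10 for endothelium (6 tested), -0.05 for pericytes and smooth muscle (7 tested), 0.11 for pigment epithelium (5 tested), 0.06 for oligodendrocytes (4 tested), -0.14 for lens and cornea (8 tested) and -0.12 for skeletal muscle (3 tested). The sign turned under at least 1 other scaling for horizontal cells, pericytes and smooth muscle, oligodendrocytes and skeletal muscle. Over the 7 settings the medians ran from -0.28 to -0.01 for rod, -0.32 to -0.25 for cone, -0.33 to -0.12 for Müller glia, -0.12 to -0.08 for amacrine, 0.08 to 0.18 for bipolar, -0.01 to 0.01 for horizontal and -0.40 to -0.32 for microglia markers. They ran from 0.05 to 0.10 for endothelium, -0.05 to 0.13 for pericytes and smooth muscle, 0.11 to 0.25 for pigment epithelium, -0.05 to 0.59 for oligodendrocytes, -0.22 to -0.02 for lens and cornea and -0.30 to 0.43 for skeletal muscle. The rod median was lowest with median scaling, where 1 of 9 was higher. Lens and cornea markers were highest in CTR2, at a median of 0.95 against each gene's mean, and next in ONC4, at 0.32. The other channels ran from -0.56 to 0.08.

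The channels labelled CTR2 and ONC4, which differ from the other 3 of their label in the ganglion cell markers, were left out singly and together. Without either one, 0 of 89 subunits were called. With both left out, a choice made after seeing the ganglion cell markers, 10 of 89 (11.2%) were called, against 2.54% of all genes. Of the 89, 48 were higher, with a median of 0.05, beside 39.8% and -0.06 over all genes. That count supports nothing about the crush, because the omission itself separates the channels with high and low ganglion cell markers.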

How the data were processed

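The authors deposited spot intensity values as written by the scanner software for 4 arrays of 2 colours on 1 slide (Feature Extraction 12.0.3.1 per the file headers; the submitters' processing notes name Agilent Feature Extraction 11.1.19.1), with mean foreground, median local background and a processed signal for each channel. Of 44254 spots, 1377 were controls. Median foreground was 218 to 626 per channel over backgrounds of 26.0 to 56.5, and the number of arrays limits precision. Controls were left out, as were spots with an outlier mark in the files or with any channel below 2 times its background (27371 spots, 18599 probes and 16307 genes kept). Background was subtracted, arrays were normalized by loess (span 0.3), channels were centred on their median, and log2 levels were averaged first over the spots of a probe and next over the probes of each gene. Where 2 or more probes of a subunit were tested (20 genes), their differences had opposite signs for 10.

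Groups came from the labels. The contrast of ONC with CTR used limma 3.58.1 under R 4.3.3 (eBayes, two-sided, Benjamini-Hochberg over all genes, adjusted p under 0.05). The labels put the retinas of a number on 1 array, and their deviations from the group means correlated over genes at 0.149, 0.549, 0.401 and 0.487 on arrays 1 to 4, so the array was also fitted as a block. The differences of pairs of arrays correlated over genes at 0.12 to 0.63. Named genes were subunits called with or without the block, the largest difference in each class, the 5 widest ranges, and the listed retinal roles, of which some are not reported here. Members and lists were chosen with earlier results of these data known. Alternatives were normexp (offset 50) with and without the filter, median scaling, Aquantile, processed signals, the brightest probe, the 4 channels whose dye both sources give alike, the test and criterion of the methods, and each retina left out. The fit without CTR2 and ONC4 and the counts of 2-fold differences on each array were chosen after seeing the data. Figures used matplotlib 3.10.9.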

Additional observations from a re-analysis of the deposited data

Results flagged for a closer look

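In 10 of 78 groups of 4 channels, over the named subunits, a single channel stood far from the 3 others of its label. Chance alone sets about 1 in 20 groups apart in this way, and over all genes it was 7.9% of groups. The count cannot be read against either share, because some subunits were named for having the widest range over the channels, and 5 of the 10 are in those. Of the 10, 4 were in CTR2, 3 in ONC4, 2 in ONC2 and 1 in CTR1. CTR2 and ONC4 are also the channels that differ from the other 3 of their label in the ganglion cell markers. What set these channels apart was not tested.

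Scn1a stood at 1.44 in CTR2, where its 3 companions ranged from 0.26 to 0.40, and at 0.67 in ONC4, where they ranged from 1.68 to 1.78 (log2 levels over the channel median, here and for the rest). Scn2a stood at 0.67 in CTR2, far above a range of -1.04 to -0.90. Cacnb4 lay at -1.74 in CTR2, far below -0.48 to -0.29, and Kcnj14 lay at 5.19 there, below 5.82 to 5.94. ONC4 had Scn7a at -2.51, below -1.99 to -1.90, and Kcne2 at 3.11, above 2.32 to 2.43. ONC2 had Hcn2 at -3.17, below -2.26 to -2.15, and Kcnma1 at -1.69, below -1.41 to -1.37. CTR1 had Kcnk1 at 1.36, below 1.87 to 1.92.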

How the results depend on the processing

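The number of arrays and signal over background limit these values, and 45 of 134 subunits had no tested value. Of the alternatives for single named subunits, 590 kept direction and side of the threshold, 23 passed the threshold in the same direction and 50 turned the direction; the cause was not tested. Subunits called were 0 of 89 by limma (17 unadjusted), 20 with median scaling, 3 with Aquantile, 3 with the array as a block, 10 without CTR2 and ONC4 (chosen after seeing the data), 10 by the unadjusted test of the methods, 0 after its adjustment, and 1 by their criterion. Genes called were 81 of 16307, 14 with normexp, 0 with normexp without the filter, 3194 with median scaling, 412 with Aquantile, 21 with the processed signals, 124 with the brightest probe and 0 with the 4 channels alike in dye. They were 1254 with the array as a block, 0 to 38 with 1 retina left out, 415 without CTR2 and ONC4, 2682 by the unadjusted test of the methods, 0 after its adjustment and 503 by their criterion. The median difference of the subunits was 0.08, and 0.29 with median scaling. Of the genes called, 46.9% were higher in ONC by the labels, against 71.4% with normexp, 71.0% with median scaling, 42.7% with Aquantile, 57.1% with the processed signals and 50% with the brightest probe.

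Direction turned to these log2 differences. With the 4 channels alike in dye it was -0.23 for Cacna1a, -0.0191 for Cacna1c, -0.13 for Kcnd2, 0.17 for Kcnd3 and 0.0309 for Kcnh2. With CTR2 and ONC4 left out it was -0.0807 for Cacna1a, -0.18 for Cacna1d, -0.0424 for Cacnb2, -0.11 for Cacnb4, -0.00727 for Hcn2, 0.0115 for Kcnc1, -0.0811 for Kcnj14, -0.0672 for Kcnj8 and -0.19 for Kcnv2. With normexp without the filter it was -0.0388 for Cacna1d, 0.0686 for Kcnd3 and -0.00608 for Kcnv2. With the processed signals it was 0.0171 for Cacna2d1, -0.00252 for Cacnb2, 0.0931 for Kcnd3, -0.00828 for Kcnj8 and 0.10 for Kcnk1. With the brightest probe it was -0.0320 for Kcnd2, 0.0400 for Kcnh2 and -0.20 for Kcnv2. With normexp it was 0.00251 for Kcnd3 and -0.0119 for Kcnv2. With median scaling it was 0.45 for Kcnd3, 0.16 for Kcne5 and -0.17 for Kcnj14. With 1 retina left out at a time the differences ran from -0.0815 to 0.10 for Cacna1a, -0.10 to 0.17 for Cacna1d, -0.23 to 0.0194 for Cacna1f, -0.19 to 0.30 for Cacnb4, -0.0571 to 0.28 for Kcnd2, -0.0831 to 0.0311 for Kcnd3, -0.0709 to 0.0135 for Kcnh2, -0.0102 to 0.22 for Kcnip4, -0.0318 to 0.45 for Kcnj14, -0.0339 to 0.34 for Kcnj8, -0.18 to 0.00712 for Kcnk1 and -0.0764 to 0.13 for Kcnv2.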
